A study of Dicentrarchus labrax with 30 samples.

Results

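Collagen genes were followed in 3 tissues of bold and shy European sea bass (Dicentrarchus labrax): pituitary, whole brain and head kidney. All rows of the count table whose symbol has the form of a collagen alpha chain were taken, which gave 83 of 26719 genes. Among them, 2 rows named COL4A3BP encode a ceramide transfer protein that only shares the name, so 81 rows were read as collagen chains. They carried 46 symbols of 26 collagen types, and 24 symbols stood on more than 1 row. Reads of near-identical copies may have been split between such rows, so values of single copies are uncertain, and chains are given with their identifiers where a symbol repeats.

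Collagens are triple-helical proteins of the extracellular matrix, built from 3 alpha chains each. Fibrillar collagens (types I, II, III, V, XI, XXIV and XXVII) form the fibers that bear load. FACIT collagens sit on the surface of those fibers, and type IV builds the sheet-like network of basement membranes. Type VI forms beaded filaments around cells, types VIII and X hexagonal networks, type VII the fibrils that anchor epithelia. Types XV and XVIII, the multiplexins, carry side chains and lie at basement membranes, and a few collagens (types XVII, XXIII and XXV) span the cell membrane. In a gland such as the pituitary, collagens lie mainly around vessels and in the capsule, whereas the head kidney of fish has a stroma that holds blood-forming cells and interrenal cells.

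By class, the 81 chains were 20 fibrillar, 18 FACIT, 14 of type VI, 8 of type IV, 5 of hexagonal networks, 4 multiplexins, 4 transmembrane chains, 3 of type VII and 5 others. Fish had been scored for how soon they left a shelter in 4 tests over 7 months, and the extremes of the first 3 tests were sampled at 478 days after fertilization. A fish that came out early was called bold, and one that came out very late or stayed inside was called shy. Each tissue gave 5 libraries of bold fish (3 males, 2 females) and 5 of shy fish (2 males, 3 females), each library from 1 fish, so the 30 libraries came from 10 fish. In each tissue, shy 1 and 2 and bold 2, 3 and 5 were males, and the numbers do not tie libraries of different tissues to one fish. Within a tissue, p values measure the spread between these fish. In fits across tissues the libraries entered as independent, so those p values do not account for libraries that share a fish.

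Total counts per library were 3808645 to 12550808 in pituitary, 7916478 to 20067656 in brain and 4667992 to 26837997 in head kidney, and collagen chains took 0.0427% to 0.196% of them. A count was found for 49 to 68 chains per pituitary, 53 to 77 per brain and 45 to 56 per head kidney. After a filter on low counts, 46 chains were tested in pituitary, 58 in brain, 31 in head kidney and 64 in the fit of all libraries; 25 were tested in each tissue and 17 in no fit. Untested chains were sparse, with medians of their mean level of 0.273, 0.413 and 0.0348 CPM (counts scaled to library size) in pituitary, brain and head kidney. Of the 81 chains, 8 had 0 counts in every pituitary and 8 in every head kidney, and 0 were without a count in the brain.

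The tissues carried their markers. On a scale shared by all libraries, neuron markers summed to 7695 CPM in brain and 10.3 in head kidney, leukocyte markers to 6851 CPM in head kidney and 144 in brain, and pituitary hormone rows to 2495 CPM in pituitary and 6.29 in brain. Some libraries stood apart from the rest of their tissue. Among pituitaries, shy 1 and shy 2, both males, had median Spearman correlations of 0.919 and 0.906 with the others, and ribosomal protein genes took 2.37% and 1.48% of their counts against 3.17% to 4.44% in the other pituitaries. In brain shy 4 the correlation was 0.731 and the ribosomal share 0.0145%, and in brain shy 1 the correlation was 0.925. The main counts of chains and many of the named values are also given without them.

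In the pituitary, collagen reads were more abundant in bold than in shy fish, and the fibrillar chains of types I, II and XI stood furthest apart, although no chain passed a test adjusted over all genes. CPM here were scaled with factors computed within a tissue. All chains together summed to 1605 ± 319 CPM in bold pituitaries (mean ± SD, n = 5, 1264 to 1944) and to 1046 ± 89.0 CPM in shy ones (925 to 1160). The groups did not overlap. In bold 3, the lowest bold library at 1264 CPM, 57.9 CPM came from COL6A6 DLAgn_00258520 and 29.0 CPM from COL4A6 DLAgn_00005310. Both of these untested rows were near 0 in the other pituitaries. In the brain the sums were 888 ± 47.9 CPM in bold and 801 ± 156 CPM among shy fish, and in the head kidney 514 ± 55.9 and 523 ± 50.8 CPM, and both of these pairs overlapped. In bulk tissue, more cells of a type and more RNA per cell cannot be told apart.

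**Figure D1:**
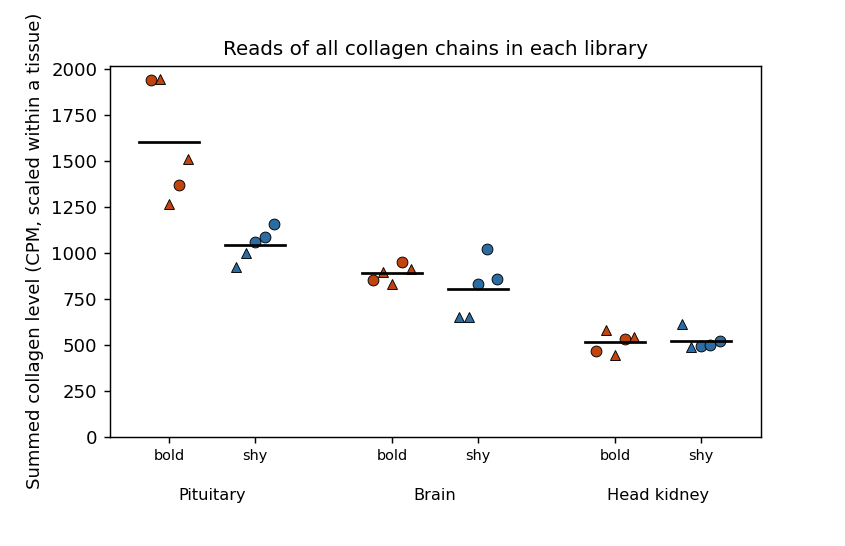
Summed level of all 81 collagen chains in each library (CPM, scaled within a tissue), by tissue and behavior. Red points are bold and blue points shy fish, triangles males and circles females, and lines are means of 5. The 5 bold pituitaries lie between 1264 and 1944 CPM, above the 5 shy ones at 925 to 1160 CPM, and the groups overlap in brain and head kidney.

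Type I collagen, the main fibrillar collagen of connective tissue, is built from the chains COL1A1 and COL1A2, and many fishes carry a further chain. COL1A2 (DLAgn_00200090) measured 143, 154, 69.6, 112 and 104 CPM in bold 1 to 5 and 41.8, 25.0, 43.0, 55.8 and 65.0 CPM in shy 1 to 5. The lowest bold library, bold 3, lay just above the highest shy one. COL1A1 (DLAgn_00196080) measured 148, 154, 59.4, 106 and 93.6 CPM in the bold and 43.8, 12.9, 43.3, 52.5 and 54.3 CPM in the shy pituitaries. Again bold 3 was the lowest bold library and the groups did not overlap, with shy 2 far below the other shy fish. COL1A1B (DLAgn_00104330), a further type I chain, measured 161, 157, 53.6, 90.6 and 105 CPM in bold and 29.0, 11.1, 31.8, 45.6 and 46.2 CPM in the shy pituitaries. Shy 2 was lowest and bold 3 the lowest bold library in all 3 chains, and bold 1 and bold 2 led all 3.

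The log2 fold changes (bold minus shy, with sex in the model) were 1.47 for COL1A2 (SE 0.243), 1.61 for COL1A1 (SE 0.351) and 2.00 for COL1A1B (SE 0.377). By edgeR's quasi-likelihood test with Benjamini-Hochberg adjustment over 17102 genes, their adjusted p values were 0.197, 0.229 and 0.229, above the threshold of 0.05. By p value they ranked 5, 53 and 17 among all genes tested in the pituitary, where 0 genes passed. The other rows named COL1A1 had lower levels and went both ways. COL1A1 DLAgn_00087110 was lower, at 9.70 ± 3.66 CPM in bold and 17.6 ± 8.99 CPM among shy fish with overlapping groups (log2 fold change −0.88, unadjusted p = 0.0751 in edgeR). COL1A1 DLAgn_00149450 was higher, at 2.73 ± 0.918 CPM in bold and 1.41 ± 0.903 CPM among shy fish, also with overlap.

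Type II and type XI collagens are the fibrillar collagens of cartilage and also occur outside it. COL2A1 (DLAgn_00095140) measured 26.9, 25.4, 19.6, 18.6 and 19.4 CPM in bold 1 to 5 and 7.05, 4.99, 8.42, 14.2 and 10.1 CPM in shy 1 to 5. Every bold library lay above every shy one. COL11A1 (DLAgn_00074370) measured 18.9, 12.8, 11.7, 9.58 and 12.2 CPM in bold and 4.18, 2.50, 7.84, 4.58 and 4.12 CPM among shy fish, again with no overlap. Their log2 fold changes were 1.43 (SE 0.244) and 1.63 (SE 0.295), with adjusted p values of 0.197 and 0.229 in edgeR's quasi-likelihood test. A second COL11A1 row (DLAgn_00008190) was led by bold 1 and bold 2, at 8.76 and 9.28 CPM, and overlapped at 0.872 to 3.57 CPM in the other bold and 0.266 to 2.87 CPM in the shy pituitaries.

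Type V collagen, a minor chain set that sets fiber width, showed smaller differences. COL5A3A (DLAgn_00191530) measured 20.5, 14.1, 17.1, 11.5 and 12.4 CPM in bold and 4.18, 3.80, 12.8, 10.3 and 13.0 CPM among shy fish. The shy males, shy 1 and 2, were the low ones, and the shy females overlapped with the bold fish. Its log2 fold change of 1.09 (SE 0.310, unadjusted p = 0.00438) was 0.42 (unadjusted p = 0.154) without shy 1 and 2. COL5A2 (DLAgn_00048120) measured 18.9 ± 8.15 CPM in bold and 9.45 ± 2.01 CPM in shy pituitaries, and COL5A1 (DLAgn_00082390) 60.2 ± 14.7 and 40.9 ± 7.64 CPM.

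**Figure D2:**
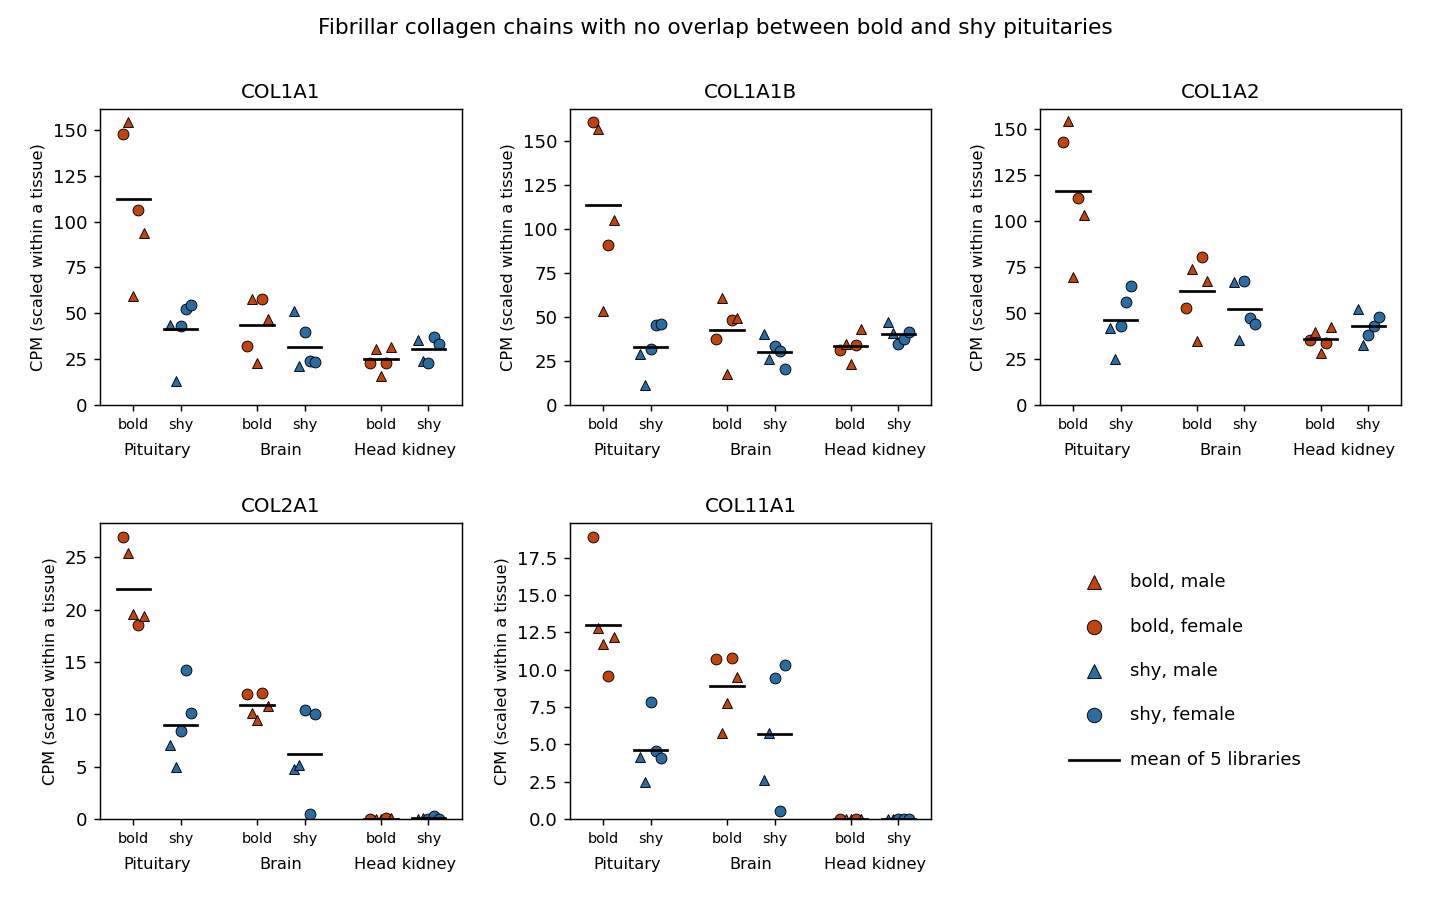
Level of the 5 chains whose bold and shy pituitaries did not overlap, in every library of the 3 tissues (CPM, scaled within a tissue). Red points are bold and blue points shy fish, triangles males and circles females, and lines are means of 5. COL1A2 lies at 69.6 to 154 CPM in bold and 25.0 to 65.0 CPM in shy pituitaries, whereas the groups overlap in brain and head kidney.

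Over the 46 chains tested in the pituitary, 40 had a positive log2 fold change, against 51.8% of all genes tested. At an unadjusted p under 0.05, 22 chains were higher and 1 was lower in bold fish, against 10.7% and 7.34% of all genes. The bold libraries lay wholly above the shy ones for 5 chains, against 1.11% of all genes. The median log2 fold change was 0.56 over the chains and 0.02 over all genes. With the adjusted threshold, 0 of 46 chains passed in edgeR (0% of all genes) and 0 in voom with sample quality weights. DESeq2 passed 10 of 46 (4.03% of all genes), and the fit of all 30 libraries passed COL1A2 and COL1A1B (adjusted p = 0.0276 and 0.0225 in edgeR, 0.0194% of all genes). Without bold 4, edgeR passed 4 chains (COL1A1B, COL1A2, COL2A1 and COL11A1 DLAgn_00074370, 0.421% of all genes). Leaving out bold 1 left 10 chains higher at an unadjusted p under 0.05. The share of all genes is not given for that setting, so this count cannot be set against it.

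The libraries of shy 1 and 2, the only shy males, stood apart, so the comparison was repeated without them. Of 51 chains then tested, 39 were positive (50.1% of all genes), 14 were higher at an unadjusted p under 0.05 (2.44% of all genes), 0 were lower and 0 passed (0% of all genes), with a median of 0.60. COL1A2 was then at 1.22 (unadjusted p = 0.0035), COL1A1 at 1.34, COL1A1B at 1.6, COL2A1 at 1.06 and COL11A1 at 1.38. COL6A3 was at 1.80 (1.01 with all libraries) and COL4A2 at 0.83 (0.51), whereas COL7A1 was at 0.63 (1.44 with all libraries), COL12A1 DLAgn_00073570 at 0.92 (1.40) and COL18A1 DLAgn_00048190 at 0.20 (0.37).

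By class, the fibrillar chains summed to 565 ± 152 CPM in bold (364 to 721) and 276 ± 63.8 CPM in shy pituitaries (188 to 347), with no overlap. Of 14 tested, 13 were positive and 10 were higher at an unadjusted p under 0.05 (51.8% and 10.7% of all genes). All 5 chains without overlap belonged to this class (1.11% of all genes lay wholly higher in bold fish). Type VI summed to 118 ± 38.9 and 67.3 ± 33.3 CPM, and its 4 tested chains were positive (51.8% of all genes, and 40 of the 46 tested chains). Of the type VI sum in bold 3, 57.9 CPM came from the untested COL6A6 DLAgn_00258520. COL6A3 (DLAgn_00047670), the largest type VI chain, measured 13.0 ± 4.97 and 6.66 ± 4.05 CPM, and COL6A2 (DLAgn_00049970) 18.1 ± 8.82 and 9.20 ± 4.17 CPM, both with overlap. Type IV summed to 152 ± 32.3 and 105 ± 26.5 CPM. Of the type IV sum in bold 3, 29.0 CPM came from the untested COL4A6 DLAgn_00005310. The common type IV chains COL4A1 (DLAgn_00052180) and COL4A2 measured 55.5 ± 17.8 against 39.9 ± 13.4 CPM and 69.8 ± 19.2 against 48.2 ± 13.8 CPM. Their log2 fold changes were 0.41 (SE 0.210) and 0.51 (SE 0.210).

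The FACIT chains summed to 299 ± 39.8 and 224 ± 68.3 CPM, and 8 of 12 were positive (51.8% of all genes). COL12A1 (DLAgn_00073570), which binds type I fibers, measured 20.0 ± 8.73 CPM in bold and 9.06 ± 4.87 CPM among shy fish (log2 fold change 1.40, SE 0.382, unadjusted p = 0.00335). COL22A1 (DLAgn_00198430), known in mammals from tissue junctions, ran from 17.3 to 61.9 CPM in bold and from 7.60 to 50.7 CPM among shy fish. COL7A1 (DLAgn_00093030), the chain of anchoring fibrils, measured 17.1, 16.4, 18.9, 26.2 and 12.2 CPM in bold and 3.92, 2.06, 19.5, 9.28 and 12.9 CPM in shy pituitaries, where the shy males were lowest.

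The multiplexins went both ways. COL18A1 (DLAgn_00048190), the source of endostatin in mammals, measured 203 ± 25.0 CPM in bold and 160 ± 30.7 CPM among shy fish. The other COL18A1 row (DLAgn_00136680) was the only chain below the unadjusted threshold with a lower level in bold fish (log2 fold change −1.73, SE 0.768, unadjusted p = 0.0457 in edgeR). It measured 0.851 to 3.16 CPM in bold and 2.61, 25.0, 4.21, 1.03 and 4.38 CPM in shy 1 to 5, so that shy 2 was far above every other pituitary and the groups overlapped, and the log2 fold change was −0.21 (unadjusted p = 0.765 in edgeR) without shy 1 and 2. Transmembrane chains summed to 168 ± 44.0 and 139 ± 11.4 CPM, and the hexagonal network chains to 49.1 ± 13.7 and 37.7 ± 11.0 CPM.

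**Figure D3:**
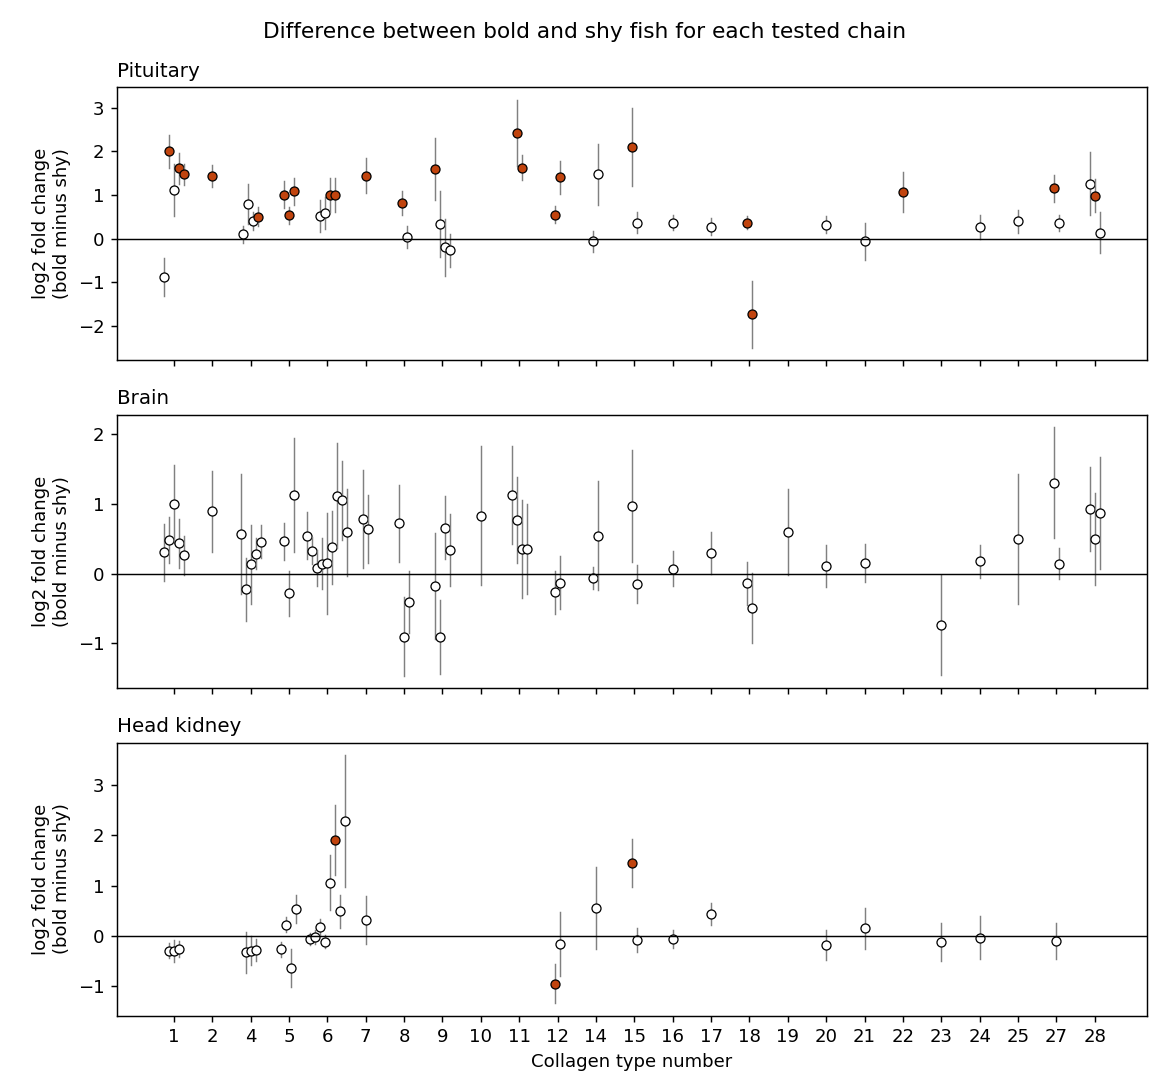
Log2 fold change (bold minus shy) of every tested chain by collagen type, 1 panel per tissue, with bars of ±1 SE. Filled points had an unadjusted p under 0.05 in edgeR. In the pituitary 23 of 46 points are filled and 40 lie above 0, in the brain 0 of 58 are filled and 45 lie above 0, and in the head kidney 3 of 31 are filled and 12 lie above 0.

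In the brain, no collagen chain was set apart between bold and shy fish by the test, with log2 fold changes from −0.91 to 1.31. Of 58 chains, 0 passed in edgeR (0.00536% of all genes), 0 in DESeq2 and 0 in voom, and 0 reached an unadjusted p under 0.05 in edgeR (1.36% of all genes, 0.515% higher and 0.848% lower). The log2 fold change was positive in 45 chains (50.7% of all genes) with a median of 0.36, against 0.01 over all genes. Type I chains overlapped between the groups. COL1A2 measured 52.7, 73.9, 35, 80.5 and 67.7 CPM in bold and 67.1, 35.5, 67.5, 47.5 and 43.9 CPM in shy brains (log2 fold change 0.26, SE 0.280), COL1A1 DLAgn_00196080 had 43.5 ± 15.6 and 31.8 ± 13.0 CPM (0.43, SE 0.353), and COL1A1B 42.8 ± 16.3 and 30.3 ± 7.49 CPM (0.48, SE 0.332). COL5A3A measured 14.5 ± 4.70 and 7.39 ± 6.12 CPM.

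COL6A1 (DLAgn_00001820), a type VI chain, was the only one whose bold brains all lay above the shy ones (0.520% of all genes). It measured 28.5, 30.4, 26.1, 34.8 and 32.3 CPM in bold and 25.3, 25.8, 25.7, 6.26 and 19.4 CPM in shy brains, with a log2 fold change of 0.55 (SE 0.341, unadjusted p = 0.142). The gap between bold 3 and shy 2 was narrow, and shy 4 was the low library. All 9 type VI chains tested in the brain were positive (50.7% of all genes), with a median of 0.38. Over all types, 45 of 58 tested chains were positive, with a median of 0.36. The smallest p belonged to COL4A2 (log2 fold change 0.46, SE 0.237, unadjusted p = 0.0820 in edgeR), at 85.9 ± 11.7 CPM in bold and 65.9 ± 23.8 CPM in shy brains, followed by COL6A6 DLAgn_00246350 at 1.58 ± 0.593 and 0.864 ± 0.620 CPM.

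Brain shy 4, the library with almost no ribosomal protein reads, was extreme in several chains. It held 92 CPM of COL23A1, a transmembrane collagen, against 7.56 to 12.6 CPM in the other shy brains. COL9A3, a chain of the FACIT type IX, was at 36.4 CPM there against 5.67 to 8.62 CPM. COL5A3A was at 0.130 CPM there against 2.40 to 14.2 CPM. Without shy 1 and 4, 62 chains were tested, of which 41 were positive (50.5% of all genes), 6 were higher at an unadjusted p under 0.05 (1.78% of all genes) and 0 passed (0.00517% of all genes), with a median of 0.15. Those 6 were COL6A1 (0.36), COL6A2 (0.49), COL11A1 (0.54), COL5A2 (0.43), COL27A1 (0.66) and COL2A1 DLAgn_00095140 (0.50). Apart from COL2A1, each of these symbols had more than 1 tested row there, and the copy is not identified here.

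In the head kidney, most chains lay close to equal in bold and shy fish. Of 31 chains, 0 passed in edgeR (0.00635% of all genes), 0 in DESeq2 and 0 in voom, and 12 were positive (48% of all genes) with a median log2 fold change of −0.06. At an unadjusted p under 0.05, 2 chains were higher and 1 was lower (5.81% and 5.4% of all genes). COL15A1B (DLAgn_00001030), a multiplexin of the vessel wall in mammals, measured 1.48, 0.876, 0.607, 1.07 and 1.66 CPM in bold and 0.458, 0.212, 0.873, 0.495 and 0.254 CPM among shy fish (1.45, SE 0.468, unadjusted p = 0.00968). Bold 3 and shy 3 made the overlap, and all levels were low. COL6A6 DLAgn_00235460 measured 1.35, 4.43, 0.303, 4.13 and 2.61 CPM in bold and 2.06, 0.425, 0.582, 0.526 and 0.381 CPM among shy fish (1.89, SE 0.694), with bold 3 lowest of all. COL12A1 DLAgn_00020470 was the lower one, at 0.596 ± 0.202 and 1.09 ± 0.383 CPM (−0.95, SE 0.385).

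Of the 9 fibrillar chains tested in the head kidney, 2 were positive and 7 negative (48% and 52% of all genes). COL1A2 measured 35.3, 39.7, 28.3, 34.0 and 42.6 CPM in bold and 52.5, 32.5, 38.3, 43.0 and 47.8 CPM in shy head kidneys (log2 fold change −0.25, SE 0.152). The groups overlapped and the highest library was a shy one. COL1A1 DLAgn_00196080 had 24.9 ± 6.44 and 30.4 ± 6.66 CPM (−0.30, SE 0.214), COL1A1B 33.3 ± 7.25 and 40.3 ± 4.74 CPM (−0.29, SE 0.153), and COL5A3A 6.95 ± 1.29 and 4.57 ± 1.84 CPM (0.54, SE 0.276). The type VI chain COL6A1 DLAgn_00001820 measured 105 ± 16.8 and 107 ± 13.1 CPM.

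Whether the difference between bold and shy fish itself differed between tissues was tested in 1 fit of all libraries, over 64 chains. No chain passed in edgeR in any of the 3 pairs of tissues (0% of all genes in each). At an unadjusted p under 0.05, the difference was larger in pituitary than in brain for 11 chains and smaller for 1 (3.16% and 1.16% of all genes), and larger in pituitary than in head kidney for 9 and smaller for 2 (3.06% and 2.51%). Between head kidney and brain it was 0 and 0 (2.52% and 1.04%). DESeq2 passed 1 chain for pituitary against brain (0.0631% of all genes), 3 for pituitary against head kidney (0.117%) and 0 for head kidney against brain. The type I chains had the smallest p values. For COL1A1B the difference in pituitary exceeded that in head kidney by 2.25 on the log2 scale (unadjusted p = 5.2e-05, adjusted p = 0.266 in edgeR), and for COL1A2 by 1.68 (adjusted p = 0.282 in edgeR). Against the brain, the excess for COL1A2 was 1.24 (unadjusted p = 0.00173, adjusted p = 0.982 in edgeR).

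Males and females were compared in the same fits, with behavior in the model. In the pituitary, 0 of 46 chains passed in edgeR (0% of all genes), DESeq2 or voom. At an unadjusted p under 0.05, 1 was higher in males (5.85% of all genes) and 5 were lower (7.69% of all genes). The higher one was COL4A1 DLAgn_00052180, at 57.9 ± 14.4 CPM in males and 37.5 ± 13.4 CPM in females (log2 fold change 0.57, SE 0.210). COL27A1 DLAgn_00121710, a fibrillar collagen of cartilage in mammals, measured 44.9 ± 14.6 CPM in males and 65.4 ± 7.21 CPM in females (−0.66, SE 0.189). COL7A1 DLAgn_00093030 (−1.24), COL22A1 (−1.29), COL20A1 (−0.54) and COL5A3A (−0.81) completed the lower ones. Shy 1 and 2, the libraries that stood apart, are among the 5 males. Without them, 0 of 51 chains were higher and 0 lower at an unadjusted p under 0.05 in edgeR (0.985% and 0.888% of all genes), with COL4A1 at 0.33, COL27A1 DLAgn_00121710 at −0.23, COL7A1 at −0.45, COL22A1 at −0.83, COL20A1 at −0.39 and COL5A3A at −0.15.

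In the brain, 0 of 58 chains passed between the sexes (0% of all genes) in edgeR, DESeq2 or voom and 0 reached an unadjusted p under 0.05 (0.477% of all genes), and 45 were lower and 13 higher in males (56.4% and 43.6% of all genes). COL23A1 was the only chain whose sexes did not overlap, with males below females (0.177% of all genes, and 0.343% with males above). Males measured 7.56 to 10.1 CPM and females 10.1 to 92 CPM, where the highest was shy 4. The gap was very narrow, with the male bold 2 at 10.07 CPM and the female bold 1 at 10.08 CPM. Without shy 1 and 4, 43 of 62 chains were lower in males and 0 passed. At an unadjusted p under 0.05 in edgeR there were 5 lower and 1 higher (1.64% and 1.67% of all genes). The lower ones included COL27A1 DLAgn_00082650 (−0.94, SE 0.216), COL11A1 DLAgn_00074370 (−0.57, SE 0.177) and COL23A1 (−0.43, SE 0.155). The higher one was COL28A1 DLAgn_00087740 (0.87, SE 0.248). In the head kidney, 0 of 31 passed (0% of all genes) in edgeR, DESeq2 or voom. COL5A2 DLAgn_00137030 was higher in males, at 3.45 ± 1.68 against 1.92 ± 0.780 CPM (0.93, SE 0.379), and COL17A1, a transmembrane collagen of epithelia, was lower at 8.92 ± 3.31 against 11.5 ± 1.79 CPM (−0.48, SE 0.215). These were the only 2 at an unadjusted p under 0.05 (1.57% and 2.01% of all genes higher and lower).

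A test of whether the bold minus shy difference depended on sex passed 1 chain in the pituitary, COL15A1B, where 9.58% of all genes passed and 7.46% passed with a positive value. COL15A1B measured 3.55, 3.92, 3.11, 0.575 and 3.32 CPM in bold 1 to 5 and 0, 0, 2.03, 1.26 and 1.06 CPM in shy 1 to 5. Both shy males had 0 counts, the bold males had 3.11 to 3.92 CPM, and the bold females lay on both sides of the shy ones. The interaction (the log2 difference in males minus that in females) was 7.19 (SE 1.76, adjusted p = 0.0301 in edgeR); with 2 libraries at 0 its size depends on the prior count of the fit. The adjusted p in edgeR was 0.0563 without bold 2, 0.150 without shy 2, 0.0544 without shy 3 and 0.0533 without shy 4. The shy males are the libraries that stood apart, so sex and library cannot be told apart there. At an unadjusted p under 0.05, 8 chains were higher and 4 lower (15.4% and 10% of all genes), with COL5A3A (1.44, adjusted p = 0.0535 in edgeR) and COL27A1 DLAgn_00121710 (0.87, adjusted p = 0.0572) next. In brain and head kidney 0 chains passed in edgeR (0% and 0.0191% of all genes), DESeq2 or voom, with 0 and 2 at an unadjusted p under 0.05 in edgeR, and the smallest p was that of COL7A1 in the head kidney (−2.46, unadjusted p = 0.00131). In brain the interaction was positive in 45 of 58 chains (55% of all genes), with COL4A1 at 0.80 (SE 0.375), COL12A1 DLAgn_00073570 at 1.15 (SE 0.660) and COL23A1 at 2.01 (SE 1.21), and at 0.66, 0.77 and 0.32 without shy 1 and 4.

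Most collagen chains differed between the tissues. For levels across tissues, CPM were scaled over all 30 libraries, and a chain was called for a tissue where it stood at least 1 log2 unit above or below the mean of the other tissues with an adjusted p under 0.05. Of 64 chains, 32 were higher and 9 lower in pituitary (25.1% and 16.7% of all genes), 35 higher and 10 lower in brain (31.2% and 21.9%), and 10 higher and 42 lower in head kidney (23.6% and 36.5%). Many chains were called higher in both pituitary and brain, each time against a mean that included a low head kidney. Without the 4 libraries that stood apart, 65 chains were tested and the counts were 36 and 9, 36 and 11, and 10 and 43. Shares of all genes are not given for that setting. All chains together summed to 1160 ± 324 CPM in pituitary, 683 ± 112 in brain and 733 ± 72.2 in head kidney (n = 10 each). As unscaled shares of counts, the medians were 0.119% in pituitary, 0.0872% in brain and 0.0527% in head kidney. The order of brain and head kidney therefore depends on the scaling. The libraries of the 10 fish entered as independent. With size factors by median of ratios, the all-gene median shifted by 0.11 (brain) and −0.11 (head kidney) on the log2 scale.

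The head kidney stood out by type VI. Type VI chains took 57.5% ± 3.56 of its collagen reads, against 6.97% ± 2.87 in pituitary and 8.92% ± 2.16 in brain, as shares of reads without correction for length. Their summed level ran from 356 to 518 CPM in head kidney (median 401), from 34.6 to 138 CPM in pituitary (median 78.2) and from 35.2 to 73.8 CPM in brain (median 60.2). The tissues did not overlap here, except for pituitary and brain. COL6A1 DLAgn_00001820 measured 150 ± 19.9 CPM in head kidney, 40.1 ± 20.2 in pituitary and 20.4 ± 6.24 in brain, and COL6A2 DLAgn_00049970 131 ± 15.5, 11.9 ± 7.01 and 13.0 ± 4.4 CPM. COL6A3 measured 60.5 ± 11.6, 8.57 ± 4.72 and 4.37 ± 0.823 CPM. The 10 chains higher in head kidney were both rows each of COL5A2, COL6A1 and COL6A2, the row of COL6A3 and 3 rows of COL6A6. One of the latter, COL6A6 DLAgn_00246350, was higher in brain (0.975 CPM) than in head kidney (0.247 CPM) by 1.96 on the log2 scale (SE 0.485), and was called higher in both, each time against a mean that included the pituitary with 0 counts. COL6A6 DLAgn_00235460 had 0 counts in all 10 pituitaries, which puts it at least 73.7-fold lower there than in head kidney by a floor of 3 counts over the tissue.

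The head kidney lacked many chains found in the other tissues. COL11A1 DLAgn_00074370 had 0 counts in its 10 libraries, at least 283-fold lower than in pituitary and 214-fold lower than in brain by the same floor. COL25A1, a transmembrane collagen with a role in motor innervation in mammals, averaged 11.2 ± 3.14 CPM in pituitary, 8.41 ± 4.49 in brain and 0.00704 ± 0.0223 in head kidney. COL18A1 DLAgn_00048190 averaged 159 ± 31, 35.4 ± 17.9 and 0.331 ± 0.397 CPM, with a log2 fold change for head kidney of −8.10 (SE 0.389). COL11A1 DLAgn_00008190 (−7.39) and COL9A1 DLAgn_00198440 (−7.34) were the other chains with the largest folds there.

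**Figure D4:**
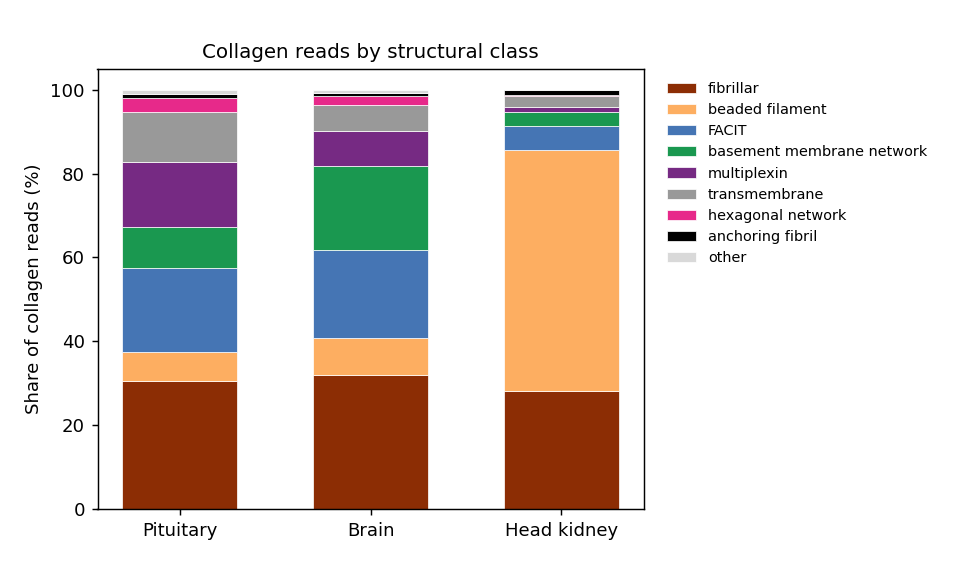
Mean share of collagen reads (%) taken by each structural class in the 3 tissues, from 10 libraries each, without correction for length. Type VI (beaded filament) takes 57.5% in head kidney and 6.97% and 8.92% in pituitary and brain, and fibrillar chains take 28.0% to 32.0% in all 3.

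The pituitary was marked by types XVIII, XVII, XVI, XXII and IX. COL22A1 ran from 6.59 to 54.3 CPM in pituitary (median 32.4) and reached at most 1.00 CPM in any brain and 0.795 CPM in any head kidney, so the tissues did not overlap (log2 fold change 6.66, SE 0.380). COL17A1 DLAgn_00014540 averaged 122 ± 29.2 CPM in pituitary, 19.8 ± 6.85 in brain and 14.5 ± 4.18 in head kidney. COL16A1, a FACIT chain, averaged 98.5 ± 22.4, 36.6 ± 11.3 and 32.3 ± 5.98 CPM. COL9A1 DLAgn_00198440, a chain of the cartilage FACIT, averaged 11.5 ± 4.66, 0.818 ± 0.382 and 0.00704 ± 0.0223 CPM (6.52, SE 0.302), and COL18A1 DLAgn_00048190 had a log2 fold change of 5.72 (SE 0.259). The largest folds in the other direction were those of COL6A6 DLAgn_00235460 and DLAgn_00246350, both with 0 counts in every pituitary.

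Types IV, XIV and XXIII were among those with their highest summed level in the brain. The type XXIII sum had a mean of 15.4 CPM and a median of 8.01 CPM there, with shy 4 at 81.5 CPM. Of type IX, which summed to 39.6 CPM in pituitary and 13.9 CPM in brain, COL9A2 and COL9A3 were higher in brain. Type IV took 20.1% ± 3.98 of collagen reads there, 9.87% ± 2.45 in pituitary and 3.42% ± 0.915 in head kidney. COL4A1 DLAgn_00052180 averaged 53.6 ± 13.2 CPM in brain, 41.7 ± 14.7 in pituitary and 11.2 ± 4.74 in head kidney. It was not separated between pituitary and brain (log2 difference −0.36, SE 0.212, adjusted p = 0.138 in edgeR). COL4A2 was not separated between pituitary and brain (log2 difference −0.24, SE 0.180, adjusted p = 0.242 in edgeR), and in both it exceeded the head kidney, by 2.19 and 2.44. COL14A1 DLAgn_00062930, which binds fibers through decorin, averaged 31.3 ± 3.96 CPM in brain, 6.55 ± 1.5 in pituitary and 0.616 ± 0.464 in head kidney. COL10A1 DLAgn_00023820, in mammals a chain of hypertrophic cartilage, averaged 1.43 ± 1.67 CPM in brain and had 0 counts in pituitary, at least 44.0-fold lower by the floor. Brain bold 2 alone held 5.90 CPM, and without it the other 9 brains averaged 0.934 ± 0.586 CPM and the bound was 28.7-fold. COL9A3 (5.14), COL11A1 DLAgn_00008190 (5.11), COL8A1 DLAgn_00053080 (4.52) and COL11A1 DLAgn_00074370 (4.49) followed by fold. The last of these averaged 5.84 CPM in brain and 7.73 CPM in pituitary. It was not separated between those tissues (pituitary minus brain 0.28, SE 0.335, adjusted p = 0.484 in edgeR). Its fold rests on the head kidney with 0 counts.

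Of the 5 type I rows, COL1A1 DLAgn_00196080, COL1A1B and COL1A2 were called for no tissue, while 2 further COL1A1 rows of lower level were called higher in pituitary and brain and lower in head kidney. COL1A1 DLAgn_00087110 averaged 11.9 ± 6.73 CPM in pituitary, 1.86 ± 0.846 in brain and 0.0619 ± 0.157 in head kidney. COL1A1 DLAgn_00149450 averaged 1.81 ± 0.970 CPM in pituitary and 1.17 ± 0.634 in brain and had 0 counts in every head kidney, at least 66.4-fold lower than in pituitary. Type I summed to 216 ± 123 CPM in pituitary (64.3 to 418), 109 ± 34.6 in brain (64.5 to 156) and 147 ± 27.5 in head kidney (97.2 to 177), and all pairs of tissues overlapped. Scaled within a tissue, it averaged 153 and 117 CPM in bold and shy brains and 94.3 and 114 CPM in head kidneys. The order of brain and head kidney in type I thus depends on the scaling. In direct pairs, COL1A1 DLAgn_00196080 was higher in pituitary than in brain by 1.05 on the log2 scale (SE 0.281, adjusted p = 0.00177 in edgeR) and higher than in head kidney by 0.62 (SE 0.284, adjusted p = 0.0471), while brain and head kidney differed by −0.42 (SE 0.277, adjusted p = 0.159).

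**Figure D5:**
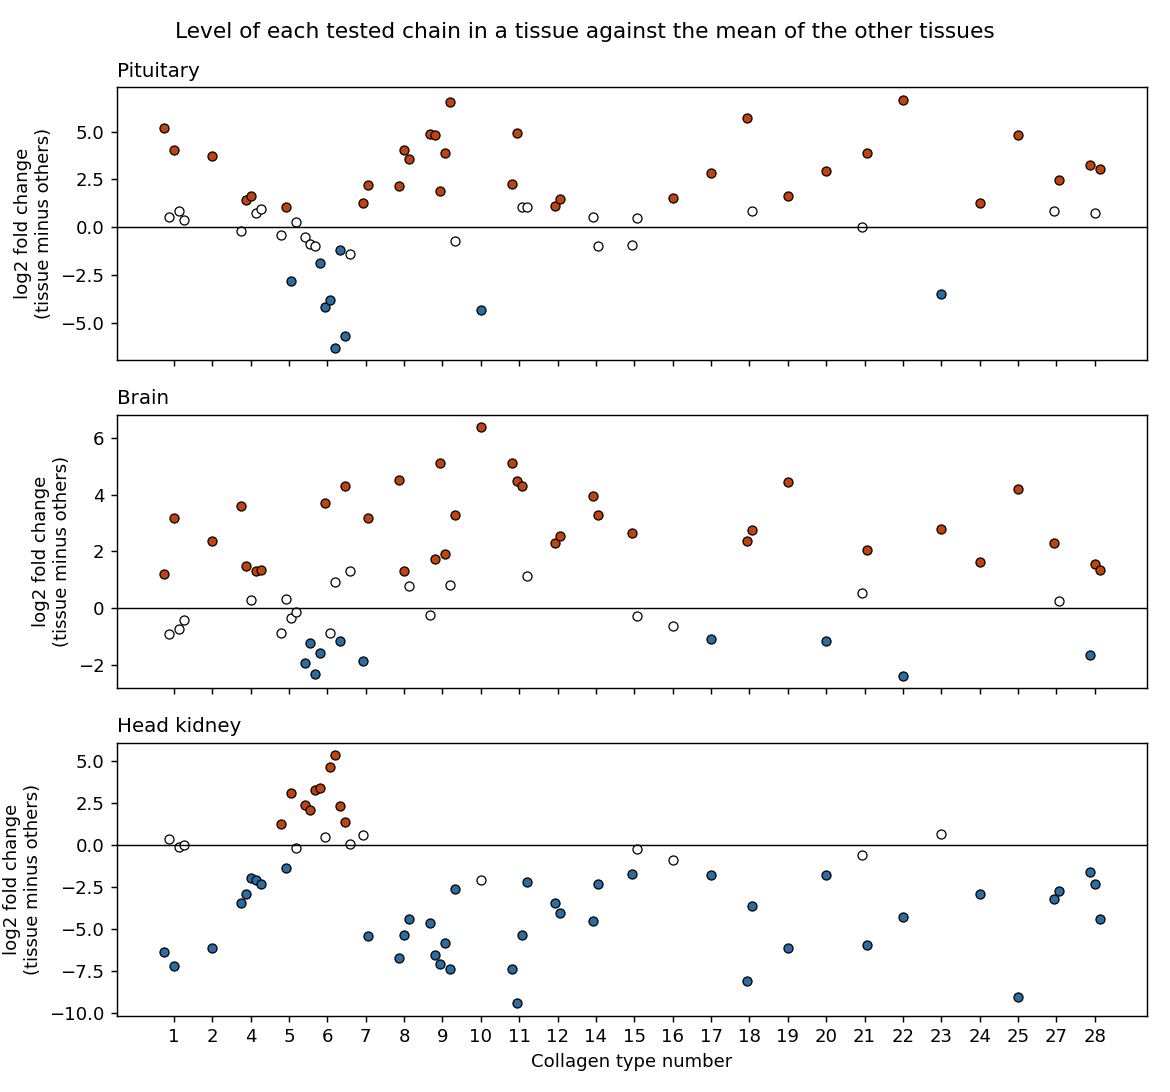
Log2 fold change of each of the 64 tested chains in a tissue against the mean of the other tissues, by collagen type. Red points were called higher (adjusted p under 0.05 and at least 1), blue points lower, white points neither. In head kidney the 10 red points are of types V and VI and 42 points are blue, while 32 points are red in pituitary and 35 in brain.

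Chains that share a trimer were compared across the libraries of a tissue as log2 CPM, over 21 pairs of chains and tissues (permutation test of Pearson's r, Benjamini-Hochberg over the 21). In the pituitary the bold and shy libraries formed separate clusters in the type I chains, so the relation cannot be tested for those 2 pairs, and of the other 19 pairs 10 passed when adjusted over the 19. Behavior did not enter the permutations. At an unadjusted p under 0.05 in edgeR, 3 of 3 type V, 2 of 4 type VI and 1 of 4 type IV chains tested were higher in bold pituitaries (10.7% of all genes). The r of those pairs may thus include the difference between the groups. For COL1A1 and COL1A2, r was 0.955 in brain (rho 0.952, permutation p = 6e-05 and 0.00012, adjusted 0.000315 and 0.00063, 10 libraries) and 0.936 without the libraries farthest from the median. In head kidney r was 0.904 (rho 0.855, permutation p = 0.00047 and 0.00274, adjusted 0.00197 and 0.00959) and 0.893 without those.

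Basement membrane partners gave COL4A1 with COL4A2 an r of 0.951 in pituitary (rho 0.976, permutation p = 3e-05 and 2e-05, adjusted 0.000315 for both) and 0.913 without the farthest 2. In head kidney r was 0.812 (rho 0.648, permutation p = 0.00789 and 0.0481, adjusted 0.0166 and 0.0918) and fell to 0.351 without the farthest 2, so it rests on those. In brain r was 0.641 (rho 0.539, permutation p = 0.0485 and 0.114, adjusted 0.0783 and 0.184), 0.324 without the farthest 2, which were shy 1 and 2, and 0.948 over the 8 libraries without shy 1 and 4 (permutation p = 0.00046, adjusted 0.00161). COL6A1 with COL6A2 in brain (r 0.862, rho 0.285, permutation p = 0.0221 and 0.425, adjusted 0.0387 and 0.530) fell to 0.351 without the farthest 2, one of which was shy 4.

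Other partners did not run together in every tissue. COL8A1 with COL8A2 in pituitary and brain and COL9A1 with COL9A2 in brain did not pass (adjusted permutation p = 0.471, 0.119 and 0.0986). COL5A1 with COL5A2 had an r of 0.796 in pituitary (rho 0.685, permutation p = 0.00682 and 0.0346, adjusted 0.0166 and 0.0726), which fell to 0.393 without bold 1 and 2. In brain r was −0.574 (rho 0.115, permutation p = 0.102 and 0.759, adjusted 0.119 and 0.796), and 0.587 without the farthest 2, one of which was shy 4. In head kidney r was −0.610 (rho −0.285, permutation p = 0.0755 and 0.429, adjusted 0.0991 and 0.530), and 0.414 without the farthest 2. COL6A1 with COL6A3 had an r of −0.323 in brain (rho −0.152, permutation p = 0.329 and 0.682, adjusted 0.363 and 0.754), and 0.422 without the farthest 2, one of which was shy 4. In pituitary r was 0.803 for this pair (rho 0.794, adjusted permutation p = 0.0166 and 0.0229), and 0.715 without bold 1 and 2. For COL6A1 with COL6A2 it was 0.788 there (rho 0.733, adjusted permutation p = 0.0192 and 0.0466), and 0.554 without bold 1 and 2. In head kidney neither pair passed (adjusted permutation p = 0.0856 and 0.380 for r).

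Genes that make, bind or sense collagen were read beside the chains in lists. Of 45 tested genes for the folding, modification, cleavage and cross-linking of collagen (of 56 rows), 24 were positive in bold against shy pituitaries, 4 were higher and 2 lower at an unadjusted p under 0.05, with a median log2 fold change of 0.04. Over all genes in the pituitary, 51.8% were positive, 10.7% higher and 7.34% lower. Their summed level was 3077 to 3394 CPM in bold and 2609 to 3812 CPM among shy fish. P4HA1, a prolyl hydroxylase subunit that stabilizes the triple helix, measured 16.6 ± 3.73 and 8.98 ± 3.49 CPM (1.05, SE 0.267), PLOD3, a lysyl hydroxylase, 160 ± 19.2 and 125 ± 36.8 CPM (0.49, SE 0.179), and SEC23A DLAgn_00260990, a coat protein of the vesicles that carry procollagen, 5.15 ± 1.85 and 1.88 ± 1.88 CPM. Of 9 tested genes of fiber-associated proteoglycans and related partners (of 16 rows), 7 were positive and 4 were higher at an unadjusted p under 0.05 (51.8% and 10.7% of all genes), led by BGN, a small proteoglycan on fibers, at 14.6 ± 5.79 and 6.75 ± 2.40 CPM (1.11, SE 0.350), and 2 rows of TGFBI (1.85 and 1.36).

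Of 11 tested collagen receptors (of 18 rows), 8 were positive, 1 was higher and 1 lower at an unadjusted p under 0.05, which is near the shares of all genes (10.7% and 7.34%). DDR1, a receptor tyrosine kinase for collagen, measured 122 ± 16.1 CPM in bold and 74.9 ± 17.9 CPM in shy pituitaries with no overlap (0.79, SE 0.163, adjusted p = 0.229 in edgeR), while ITGA1, the alpha subunit of a collagen integrin, was at 19.5 ± 3.49 and 28.1 ± 10.8 CPM (−0.55, SE 0.228) and ITGB1 DLAgn_00009330 at 16.3 ± 2.87 and 13.8 ± 6.5 CPM (0.42, SE 0.274). Of 27 tested regulators of collagen genes (of 32 rows), 13 were positive, 4 were higher and 3 lower (51.8%, 10.7% and 7.34% of all genes), among them PDGFRA (0.70, SE 0.208, no overlap), SOX9B (1.63, SE 0.534) and TGFB2 (−0.54, SE 0.191). Over all genes in the pituitary, 1.11% lay wholly higher in bold fish. In none of these lists, in any tissue, did a gene pass in edgeR. Without shy 1 and 2, DDR1 was at 0.42, P4HA1 at 0.68, BGN at 0.88, the TGFBI rows at 1.06 and 1.12, PDGFRA at 0.77, SOX9B at 1.36 and TGFB2 at −0.30, while SEC23A DLAgn_00260990 was at 0.67, PLOD3 at 0.032, ITGA1 at −0.050 and ITGB1 at −0.13.

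The same lists were read in the other tissues. In brain, processing genes had a median of 0.10 (32 of 50 positive, 0 higher and 1 lower at an unadjusted p under 0.05, against 50.7%, 0.515% and 0.848% of all genes), partners −0.08, receptors 0.19 and regulators −0.07. TGFB1B, a growth factor that raises collagen output, did not overlap there (0.52% of all genes lay wholly higher in bold brains). It measured 28.8 ± 3.68 CPM in bold and 21.2 ± 4.16 CPM in shy brains (0.49, SE 0.193). SEC23A DLAgn_00135940 measured 15.7 ± 1.91 and 24.4 ± 9.98 CPM (−0.67, and −0.17 without shy 1 and 4). In head kidney the medians were −0.06 for processing genes (18 of 42 positive, 2 higher and 1 lower, against 48%, 5.81% and 5.4% of all genes), −0.09 for partners and −0.06 for regulators, and 5 of 10 tested receptors were positive. LOXL3, a lysyl oxidase, measured 14.4 ± 1.14 and 10.7 ± 1.76 CPM there. FKBP10, a collagen chaperone, measured 9.23 ± 0.199 and 11.7 ± 2.12 CPM with no overlap (1.6% of all genes lay wholly lower in bold fish). POSTNB measured 13.9 ± 4.68 and 23.5 ± 10.7 CPM and GPR56 21.6 ± 3.05 and 30.0 ± 5.26 CPM. FOXC1 DLAgn_00006350, a transcription factor, had a log2 fold change of −0.95 (SE 0.307).

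Markers of the cells that could carry collagen were read beside the pituitary chains. Summed fibroblast markers were 211 to 536 CPM in bold and 204 to 447 CPM in shy pituitaries (8 of 11 tested positive, against 51.8% of all genes, of 18 rows, none at 0; 11 of 11 without shy 1 and 2). Endothelial markers summed to 345 to 885 and 249 to 465 CPM (8 of 12 positive), pericyte and smooth muscle markers to 558 to 744 and 476 to 731 CPM (7 of 16), and leukocyte markers to 87.1 to 225 and 66.8 to 144 CPM (14 of 16). Osteoblast markers summed to 370 to 490 and 227 to 578 CPM (3 of 3 tested, of 7 rows, with SP7 and 1 row of ALPL at 0), and chondrocyte markers to 25.5 to 40.5 and 20.3 to 27.4 CPM (3 of 4 tested, of 17 rows, with MATN3 at 0). Neuron markers summed to 1333 to 1948 and 1234 to 1611 CPM (16 of 20 positive). All 7 sums overlapped between bold and shy fish. The fibroblast list shares genes such as PDGFRA with the lists above. Without shy 1 and 2, the fibroblast median log2 fold change was 0.85, and 50.1% of all genes were positive. Then 10 of 12 endothelial (median 0.37), 12 of 17 pericyte and smooth muscle (0.18), 14 of 19 leukocyte (0.24) and 12 of 20 neuron markers (0.05) were positive. For osteoblast and chondrocyte markers it was 2 of 3 (0.19) and 4 of 4 (0.09). Of other lists, 6 of 7 glia (median 0.70), 5 of 5 myelin (1.30), 5 of 5 kidney tubule (0.23) and 2 of 3 pituitary hormone markers (0.38) were then positive. So were 1 of 5 erythroid (−0.55) and 1 of 3 skeletal muscle markers (−0.32). The part of these marked cells in the collagen values was not tested.

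COL4A3BP encodes a protein that carries ceramide between membranes. In the pituitary COL4A3BP DLAgn_00117000 measured 68.2, 66.3, 64.5, 64.2 and 65.9 CPM in bold and 101, 114, 69.7, 78.1 and 69.6 CPM among shy fish, so every bold library lay below every shy one (1.03% of all genes). The shy males were highest, and the log2 fold change was −0.42 (SE 0.128, adjusted p = 0.229 in edgeR), and −0.14 (SE 0.118) without shy 1 and 2. The other row, DLAgn_00081680, measured 126 ± 14.7 and 133 ± 28.7 CPM with overlap (−0.10, SE 0.142, and 0.22 without shy 1 and 2). In brain the 2 rows were at −0.24 (SE 0.160) and −0.22 (SE 0.159), and in head kidney at 0.03 (SE 0.114) and 0.04 (SE 0.136), with overlap in both tissues.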

How the data were processed

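Per the labels' protocols, poly(A) RNA went into strand-marking libraries, sequenced from 1 end to 50 nt over 3 lanes. Per the submitters' processing notes, the tools included TopHat2 2.1.1 with Bowtie2 2.2.9 and featureCounts 1.6.2. The genome build, annotation, strand setting and handling of reads with several matches were not given in the sources used here. Raw, unnormalized counts were deposited by the authors for 26719 genes in 30 libraries. Symbols are those of the count table. No gene coordinates, lengths or sequences were used, so neither levels nor shares of reads are corrected for gene length.

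The collagen chains, the gene lists and the tests were chosen with earlier results of these data known. Within each tissue, edgeR 4.0.16 in R 4.3.3 (quasi-likelihood, robust, TMM factors, filterByExpr with a minimum count of 10) was fitted on all genes with behavior and sex, and a second fit added their interaction. Tissue calls and differences between tissues came from 1 fit of 30 libraries. P values are two-sided and adjusted by Benjamini-Hochberg over 17102 genes in pituitary, 18640 in brain, 15741 in head kidney and 20598 in the fit of all libraries. Correlations used log2 CPM with a prior count of 2 and 1e+05 permutations. Fits were tested on simulated data.

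Picked for naming were chains that passed (for tissues, the 5 with the largest fold), for behavior and sex the 5 lowest p values each way, the 3 with the smallest p for each interaction, COL1A1, COL1A1B, COL1A2, COL5A3A and COL4A3BP, and list genes with the 3 smallest p. Not all of these are described above, and COL15A1A and COL21A1 between the sexes are examples left out. Further chains, named to describe a class, a type, a tissue or a library, were chosen after their values were seen. Alternatives were DESeq2 1.42.0, voom with sample quality weights (limma 3.58.1), size factors by median of ratios, other filters, no covariate, non-robust shrinkage, other thresholds, all libraries in 1 fit, and leaving out libraries that stood apart or each library in turn. Leaving libraries out for list genes and for a floor, and leaving out pairs of chains that form clusters, were added after seeing the data. Plots were made in Python 3.11.15 (matplotlib 3.10.9).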

Additional observations from a re-analysis of the deposited data

Results flagged for a closer look

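In 16 of 136 groups of 5 libraries, 1 library lay far from the other 4 by Dixon's test, of which chance flags about 1 in 20. In the pituitary these were COL15A1B in bold 4 (0.575 CPM, the others at 3.11 to 3.92), COL1A1 DLAgn_00196080 in shy 2 (12.9 CPM, the others at 43.3 to 54.3) and COL18A1 DLAgn_00136680 in shy 2 (25.0 CPM, the others at 1.03 to 4.38). In bold brains they were COL4A2 in bold 2 (65.7 CPM, the others at 87.8 to 96.0), COL5A3A in bold 2 (6.31 CPM, the others at 15.1 to 17.7), COL6A6 DLAgn_00258520 in bold 3 (25.4 CPM, the others at 2.90 to 5.24) and COL1A1 DLAgn_00087110 in bold 1 (4.61 CPM, the others at 1.69 to 2.21).

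Brain shy 4 was the high library in 5 chains, with COL9A3 at 36.4 CPM, COL8A1 DLAgn_00137480 at 21.5 CPM, COL23A1 at 92 CPM, COL12A1 DLAgn_00020470 at 52.6 CPM and COL18A1 DLAgn_00048190 at 95.0 CPM, while the other shy brains did not exceed 8.62, 5.51, 12.6, 20.4 and 42.8 CPM in them.

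In the head kidney they were COL12A1 DLAgn_00020470 in bold 5 (0.950 CPM, the others at 0.455 to 0.565), COL6A6 DLAgn_00258520 in bold 3 (33.6 CPM, the others at 0.492 to 2.06), COL4A3BP DLAgn_00081680 in bold 4 (94.2 CPM, the others at 113 to 116) and COL6A6 DLAgn_00235460 in shy 1 (2.06 CPM, the others at 0.381 to 0.582). The bold minus shy difference of COL15A1B in the pituitary differed between males and females by 7.19 on the log2 scale, by the interaction test given above.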

How the results depend on the processing

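No paired analysis was made because replicate numbers follow accession order and the columns do not name the fish. The planned fit with the fish as a block was therefore not run. Behavior and sex came in the same order in each tissue, which by itself does not tie libraries to a fish. In the pituitary, 0 chains passed for behavior, against 10 in DESeq2, 2 in 1 fit of all 30 libraries and 0 to 4 with a library left out (4 without bold 4), and 22 were higher at an unadjusted p under 0.05, against 14 without shy 1 and 2 and 10 (without bold 1) to 25 with 1 library left out. For the interaction with sex, 1 of 46 passed there (9.58% of all genes), against 6 in DESeq2, which is near its share of all genes (13.2%). It was 2 with non-robust shrinkage, 2 in voom, 7 at an adjusted p under 0.10 and 0 to 3 with a library left out. Of the latter, it was 3 without bold 1 or shy 1, 2 without bold 3, bold 4 or shy 5, and 0 without bold 2, shy 2 or shy 3. Many counts under alternatives, here and in the next paragraph, stand without a share of all genes. Such counts cannot be set against all genes.

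In the brain, 0 chains were higher at an unadjusted p under 0.05, against 7 in voom (3.00% of all genes), 6 without shy 1 and 4, 2 in 1 fit of all libraries and 0 to 5 with a library left out (5 without shy 4, 2 without shy 3, 1 without bold 3 or shy 5). In the head kidney, 2 were, against 1 with at least 1 CPM in 5 libraries, 4 in DESeq2, 4 with no covariate, 1 in 1 fit of all libraries and 2 to 3 with a library left out. A log2 fold of at least 2 left 27 of 45 calls in brain. For differences between tissues DESeq2 passed 1 (pituitary and brain) and 3 (pituitary and head kidney).

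These values changed sign. Without shy 1 and 2, COL4A3BP DLAgn_00081680 in pituitary was at 0.22 (−0.25 to 0.013 with a library left out), and male minus female was −0.012 for COL4A3BP DLAgn_00117000, −0.038 for COL6A3 and −0.081 for COL8A2. COL23A1 in brain was at 0.068 in voom, 0.063 without shy 1 and 4, and −1.07 to 0.11 with a library left out. COL6A2 DLAgn_00049970 (male minus female, brain) was at −0.066 in voom and −0.041 without shy 1 and 4. With a library left out, COL9A1 DLAgn_00198440 in pituitary ran from −0.56 to 0.069, COL1A1 DLAgn_00087110 in brain from −0.11 to 0.59, and in head kidney the median over the chains from −0.10 to 0.039, COL4A3BP DLAgn_00081680 from −0.024 to 0.14 and COL4A3BP DLAgn_00117000 from −0.069 to 0.091. ITGB1 DLAgn_00009330 in pituitary was at −0.13 without shy 1 and 2, an alternative for list genes chosen after seeing the data, as was leaving out the pituitary type I pairs (10 of 19 passing, against 12 of 21). The cause was not tested for any of these. Under all alternatives, values were taken for the genes picked for naming in the comparisons within a tissue, described above or not. COL4A3BP and the medians over the chains were included. Of these values, 1408 kept direction and side of the threshold (for the medians, direction alone). Another 16 came to pass it, 4 no longer passed it and 19 changed sign. Depth limits chains near 1 CPM or below, and intervals were not computed for them.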

Other observations

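A few chains drew nearly all their reads in a tissue from 1 library (at least 80% of the tissue's summed CPM, and at least 5 CPM, a rule chosen after the values were seen), which gave 6 cases, all from males. COL6A6 DLAgn_00258520 had 465 counts (57.9 CPM) in pituitary bold 3 and at most 0.290 CPM in the other 9 pituitaries. In brain bold 3 it had 25.4 CPM against 2.64 to 5.35 CPM in the other brains, and in head kidney bold 3 it had 33.6 CPM against 0.465 to 2.06 CPM. COL4A6 DLAgn_00005310, a type IV chain, had 233 counts (29.0 CPM) in pituitary bold 3 and 565 counts (33.7 CPM) in brain bold 3, against at most 0.573 and 0.352 CPM in the other libraries of those tissues, and at most 0.0970 CPM in any head kidney. COL4A1 DLAgn_00005320 had 2.49 CPM in pituitary bold 3 and 7.88 CPM in brain bold 3, against at most 0.237 and 0.176 CPM elsewhere in those tissues. The labels do not tie libraries of different tissues to one fish, so whether the bold 3 libraries come from the same male is not known here.

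COL12A1 DLAgn_00228670 had 86 counts (7.32 CPM) in pituitary bold 5 and at most 0.158 CPM in the others, and COL10A1 DLAgn_00066250 had 64 counts (5.24 CPM) in brain bold 2 and at most 0.184 CPM in the others. In the fits within a tissue, the 6 cases were below the filter on low counts and were not tested.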
